A study of Mus musculus with 6 samples.

Results

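Skeletal muscle genes were measured in cultures of mouse embryonic fibroblasts on 6 two-colour arrays. The set holds 10 genes, Myod1, Myog, Acta1, Actc1, Tnnc1, Tnnt2, Myh3, Mylpf, Des and Ckm, whose probes were found by the gene name on the array. The rule has no threshold on measured values. They have 12 of the 41174 probes on the array that are not controls, since Myh3 and Tnnt2 have 2 probes each and the other genes 1. A gene with 2 probes is represented by its brighter one. The cultures came from whole minced embryos of embryonic day 15, by the labels, so they can hold descendants of many tissues. Primary wild type cells were compared with Wrn Δhel/Δhel cells, in which part of the helicase domain of the Werner syndrome protein is deleted in frame, on a mixed 129/Sv and Black Swiss background. For each genotype, cells exposed to 0.5 mM H2O2 (hydrogen peroxide) for 1 hour and left for 24 hours in fresh medium were set against untreated cells on 2 arrays. Untreated mutant cells were set against untreated wild type cells on 2 more arrays, replicates 3 and 4. Treated RNA was always in Cy5 and untreated RNA in Cy3, so a preference of a probe for a dye cannot be told apart from a response within a pair of arrays. The wild type and mutant cultures of the first 4 arrays are named as biological duplicates, and n is 2 arrays per comparison throughout.

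Skeletal muscle forms from myoblasts, which withdraw from the cell cycle, fuse into myotubes and assemble the contractile apparatus. The transcription factor MyoD commits cells to this lineage and myogenin drives their terminal differentiation, after which genes of the thin filament (actins, troponins, tropomyosins), the thick filament (myosin heavy and light chains), the intermediate filament desmin and muscle creatine kinase are transcribed. Cardiac actin, cardiac troponin T and the slow and cardiac troponin C are used in embryonic skeletal muscle as well as in heart, and actins of muscle are also found in contractile fibroblasts. Many promoters of muscle genes hold E-boxes, which bind MyoD family proteins, and CArG boxes, which bind serum response factor.

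To place the results below beside their promoters, the 250 bases before the RefSeq transcription start (build GRCm38.p6) are shown for both actins, the pair whose treated levels lay below all untreated ones, and for Des, whose ratios had opposite signs in wild type and mutant cells. Capitals mark E-boxes (CANNTG) and the CArG box (CCWWWWWWGG, with W for A or T). Only exact matches were counted, so a near match to the CArG box is not marked or counted. Acta1 lies at chr8:123894776-123895025 on the minus strand, Actc1 at chr2:114052876-114053125 on the minus strand and Des at chr1:75360042-75360291 on the plus strand.
Acta1: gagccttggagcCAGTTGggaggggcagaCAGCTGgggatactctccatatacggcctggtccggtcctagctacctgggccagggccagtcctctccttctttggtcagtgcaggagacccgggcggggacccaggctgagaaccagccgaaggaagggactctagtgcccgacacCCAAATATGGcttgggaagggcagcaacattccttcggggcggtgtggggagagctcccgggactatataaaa
Actc1: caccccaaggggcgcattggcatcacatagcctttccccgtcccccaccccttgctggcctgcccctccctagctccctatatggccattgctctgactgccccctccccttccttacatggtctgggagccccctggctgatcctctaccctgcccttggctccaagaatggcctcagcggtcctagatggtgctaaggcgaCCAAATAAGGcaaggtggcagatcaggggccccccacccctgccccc
Des: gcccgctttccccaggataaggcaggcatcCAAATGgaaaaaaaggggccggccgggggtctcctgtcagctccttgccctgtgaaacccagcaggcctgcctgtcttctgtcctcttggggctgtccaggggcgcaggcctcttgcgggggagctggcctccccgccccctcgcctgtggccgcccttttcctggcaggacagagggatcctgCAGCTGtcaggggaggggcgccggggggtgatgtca
The CArG box CCAAATATGG of Acta1 begins 73 bases before the start, and CCAAATAAGG of Actc1 begins 47 bases before it. Of 32851 promoter windows in the RefSeq table, 1.47% hold a CArG box on the strand of the gene (the motif reads alike on both strands), 66.2% an E-box and 13% the E-box CAGCTG. A promoter was found for 9 of the 10 genes, all but Myod1. The CArG box was found in 2 of these 9, the actins, an E-box in 8 and CAGCTG in 5 (Acta1, Tnnt2, Mylpf, Des and Ckm). Of 61 other skeletal muscle genes with a promoter, 8.2% held a CArG box, 78.7% an E-box and 37.7% CAGCTG. Of 11 cardiac genes the shares were 18.2%, 100% and 27.3%. Of 6 smooth muscle genes they were 0%, 83.3% and 33.3%, and of 5 fibroblast genes 0%, 40% and 0%. The motifs are matches in a window and no measurement of binding, and their link to the ratios below was not tested.

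Signals reached well above background, in the software's own flag, for 41.5% to 69.2% of spots in Cy5 and for 75.8% to 90.0% in Cy3. Myod1, Myog, Acta1, Actc1, Tnnc1 and Des were well above background in all 12 channels. Tnnt2 and Myh3 were in 11, Mylpf in 7 and Ckm in 6. The software marked 0.4% to 8.8% of spots as outliers on 5 arrays and 22.6% on the array of wild type replicate 2. Marked spots were left out of the fit, and that left 1 array instead of 2 behind some of the ratios below, which is said beside them. The genotype ratios are given as mutant over wild type in the direction of the study's own table of this comparison. The labels put wild type RNA in Cy5 on these 2 arrays, the opposite, and under the labels every sign of a genotype ratio below turns. The untreated Cy3 channels of the first 4 arrays compare the genotypes with no such doubt, and the ratio from them correlated with the genotype ratio at r = 0.82 over the called probes and 0.58 over all probes, as a description. Both values are positive in the direction of the study's table and turn negative under the labels.

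The array of wild type replicate 2 stood apart in the brightness of some probes. Over all probes the median difference from replicate 1 was -0.16, so the array as a whole was not brighter. Whether the excess lies in the culture or in the array was not tested. On this array, with treated and untreated RNA together, the main probe of Myh3 was brighter by 3.42 on the log2 scale than on the array of wild type replicate 1, after the brightness of all arrays was brought to one distribution. The spots of both Myh3 probes on the array of replicate 2 were marked as outliers. The other Myh3 probe had normalized levels of 5.72 in Cy3 and 4.80 in Cy5 on replicate 1, and of 6.34 and 5.62 on replicate 2. The excess of 3.42 is thus that of 1 probe. The other genes of the set differed between -0.54 (Actc1) and 1.39 (Mylpf). Of 80 further skeletal muscle genes on the array, 11 (13.8%) were brighter by more than 2, against 3.01% of all probes. The same held for 2 of 12 cardiac genes and for none of 10 smooth muscle and 10 fibroblast genes. The 3 genes of the skeletal muscle list with the largest excess, named after their values were seen, were Tcap, the telethonin of the Z-disc (2.96), Tnnc2, fast troponin C (2.92), and Tnnt3, fast troponin T (2.82). Between the mutant pair of arrays they differed by -0.03, -0.04 and -0.11. Brightness here is the mean of both dyes, so it is a separate measure from the ratio. Their part in the results below was not tested beyond leaving this array out.

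**Figure D1:**
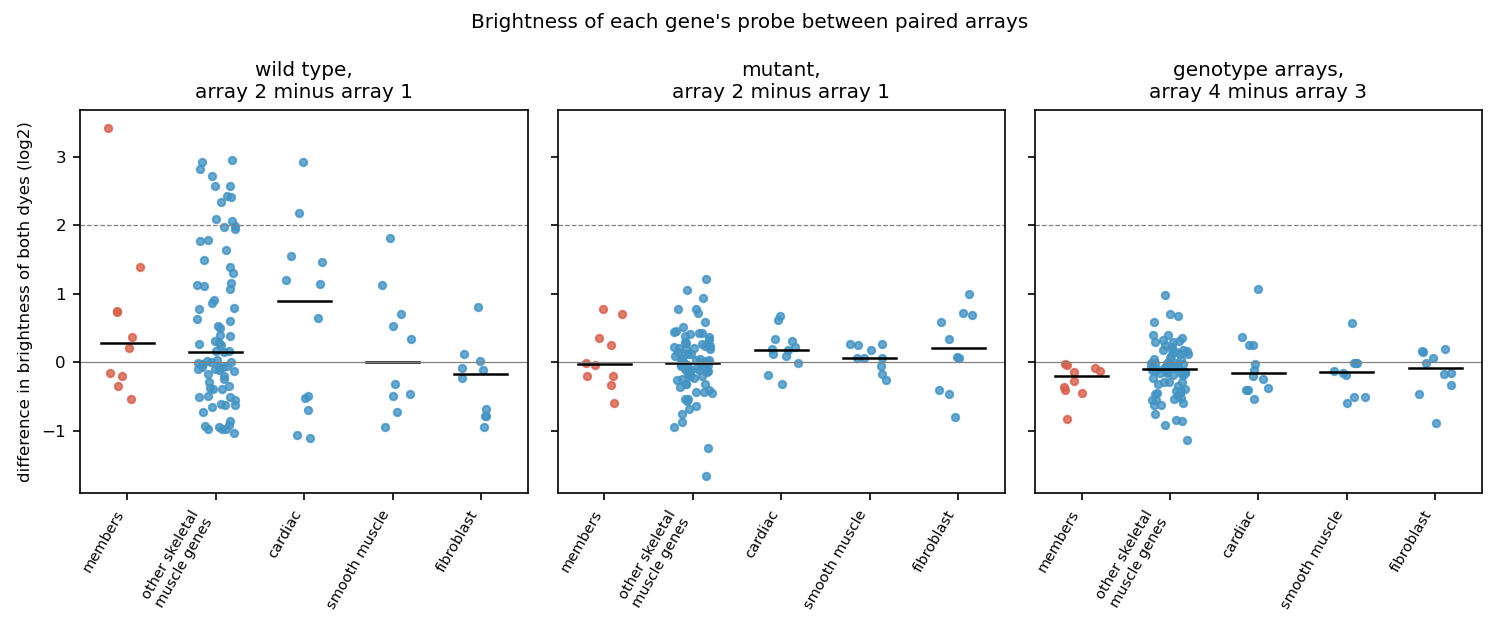
Difference in brightness (mean log2 intensity of both dyes, after scaling between arrays) of each gene's probe between the arrays of a pair, for the 10 members and 4 marker lists, with black lines at the medians and a dashed line at 2. In the wild type pair 11 of 80 other skeletal muscle genes, 2 of 12 cardiac genes and the main probe of Myh3, from a marked spot, lie above the dashed line. None of the listed genes does so in the mutant and genotype pairs.

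The first question was how the muscle genes stood in cells 24 hours after H2O2. The ratios of Acta1 and Actc1 after H2O2 were below 0 on all 4 treatment arrays, as were those of Tnnc1, Myod1 and the main probe of Myh3, marked spots included. That of Acta1 in mutant cells was the lowest, at -2.20 on the log2 scale, a 4.61-fold difference. The mutant ratio of Actc1 turned to 0.26, and that of Tnnc1 to 0.68, when arrays were centred on their median in place of the loess curve, and that of Myod1 turned to 1.09. In the limma fit over all 6 arrays, with calls at a Benjamini-Hochberg adjusted p under 0.05, none of the 10 genes was called in treated against untreated wild type cells, where 0.836% of all probes were called. None was called in treated mutant cells, where 0% of probes were called. At an unadjusted p under 0.05, 5 of the 10 genes (Acta1, Tnnt2, Tnnc1, Myh3 and Des) passed in wild type cells, against 19.9% of all probes, and 2 (Acta1 and Actc1) in mutant cells, against 12% of all probes. The images of the 4 treatment arrays were extracted on one day and those of the genotype arrays on other days. Each array holds both sides of its comparison, so the day runs with the set of arrays. The genotype arrays were noisier, with array weights of 0.328 against 1.56 for the mutant and 1.95 for the wild type pair. Fitted on the 4 arrays of one extraction day, the same log2 ratios gave 5 called genes in wild type cells, where 23.5% of probes were called, and 2 in mutant cells, where 11.1% were called. The median log2 ratio of the 10 genes was -0.53 in wild type and -0.08 in mutant cells, against -0.01 and 0.01 for all probes. Markers of fibroblasts stood beside these ratios in wild type cells: the 7 of 10 fibroblast genes with a value had a median of -0.99 there and 9 of them a median of -0.06 in mutant cells, with none called by limma over 6 arrays and 5 and 1 at an unadjusted p under 0.05 (71.4% and 11.1%, against 19.9% and 12% of all probes). With marked spots kept, the medians of all 10 were -0.68 and 0.03. The summed intensity of that list, marked spots kept, went the other way in wild type cells. It was 44388 to 54617 in untreated and 55435 to 65876 in treated wild type channels, and the part of this list in the result was not tested.

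**Figure D2:**
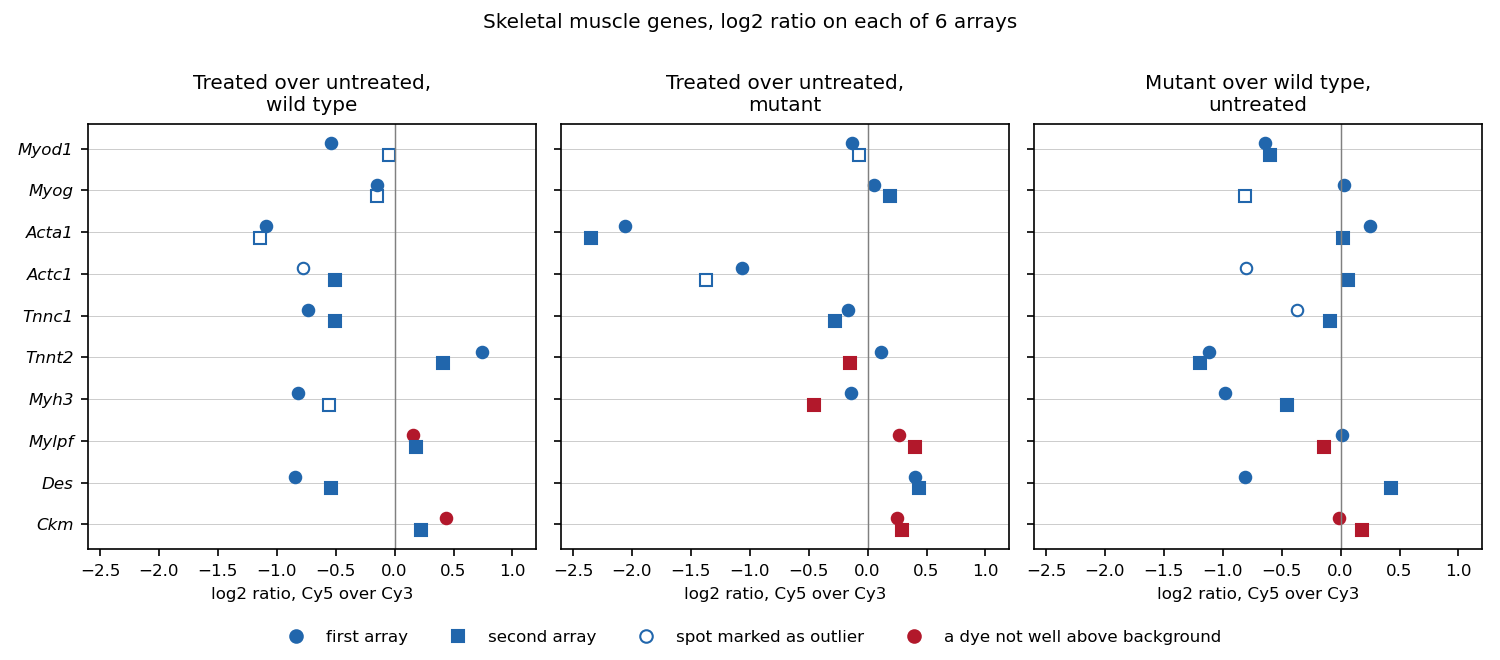
Log2 ratio of Cy5 over Cy3 on each of the 6 arrays for the brighter probe of each gene, by comparison. Circles are the first and squares the second array, open symbols are spots marked as outliers, and red symbols have a dye that was not well above background. Acta1 lies at -1.09 and -1.14 in wild type cells and at -2.06 and -2.35 in mutant cells, and Tnnt2 at -1.12 and -1.19 in the genotype comparison.

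Among the regulators, Myod1, which encodes the determination factor MyoD, was well above background in every channel. Its net signal in untreated cells was 3074 and 6851 in Cy3 of the wild type arrays, and 886 and 1141 in Cy3 of the mutant arrays, before normalization. The log2 ratio of treated over untreated cells was -0.54 and -0.05 in wild type cells, the second from a marked spot, and -0.14 and -0.07 in mutant cells, the second again from a marked spot. The replicates of wild type cells thus disagreed, and neither ratio was called (adjusted p = 0.32, from 1 array, and 0.88, from 1 array). With median centring they were 0.01 and 1.09, not called either (adjusted p = 0.99 and 0.10). Between untreated genotypes the ratio was -0.64 and -0.60, with a mean of -0.62 ± 0.18 (SE), and an adjusted p of 0.067. It was called when marked spots were kept (adjusted p = 0.044, with 22.4% of all probes called), on the same 2 unmarked values. In Cy3 of the first 4 arrays the mutant was lower by -0.26 ± 0.28 (SE, adjusted p = 0.71), which is within its error.

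Myog, which encodes myogenin, had net signals of 177 to 610 in Cy3 and of 20.1 to 102 in Cy5, well above background in all 12 channels. Treated over untreated cells gave -0.15 and -0.15 in wild type cells and 0.06 and 0.19 in mutant cells. The genotype arrays gave 0.03 and -0.81, the second from a marked spot. No comparison of Myog passed an unadjusted p of 0.05. On the treatment arrays its normalized level was between 6.56 and 6.91 in the 4 wild type channels and between 7.07 and 7.55 in the 4 mutant channels, which do not overlap, as for 10.4% of all probes in that direction. The genotype arrays did not repeat that order, with 7.30 and 6.90 for wild type and 7.33 and 6.09 for mutant cells.

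Acta1, which encodes skeletal muscle alpha-actin, had the largest ratio of the set in treated cells. In wild type cells the log2 ratio was -1.09 on replicate 1 and -1.14 on replicate 2, the latter from a marked spot. In mutant cells it was -2.06 and -2.35. All 4 arrays were therefore below 0 by more than 1, and both mutant arrays were lower than both wild type arrays, as for 24.1% of all probes. The fit gave -1.09 ± 0.25 (SE, from 1 array) in wild type cells, not called, and -2.20 ± 0.18 in mutant cells with an adjusted p of 0.12. That is the lowest adjusted p of the mutant comparison, a value that other probes share. With marked spots kept the wild type ratio was -1.12 and was called (adjusted p = 0.036), as were 2.39% of all probes. On the 4 arrays of one extraction day both were called (adjusted p = 0.0039 and 2.73e-05). With each array only centred on its median in place of the loess curve, the ratios were -0.55 and -1.34, the same direction with a smaller size, and neither was called (adjusted p = 0.54 and 0.051, with 0.0447% and 6.52% of all probes called).

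Between untreated genotypes Acta1 was not called, with ratios of 0.25 and 0.02 on the genotype arrays and a mean of 0.14 ± 0.18 (SE, adjusted p = 0.62), or 0.66 with median centring (adjusted p = 0.25). Since these ratios compare Cy5 with Cy3 as well, a model of the separate channels with a term for the dye could be fitted over all arrays. In that model the dye term of Acta1 was -0.01 ± 0.29, and the treated over untreated ratio stayed at -1.17 in wild type and -2.20 in mutant cells (adjusted p = 0.50 and 0.055), with marked spots kept. With the dyes of the labels in place of the study's table, the dye term was 0.57 ± 0.31 and the ratios were -1.69 and -2.78 (adjusted p = 0.025 and 0.053). Untreated RNA was in Cy5 only on the genotype arrays, whose dyes are in doubt. The dye term rests on these arrays and cannot show whether the probe prefers a dye. The normalized level was 11.20 ± 0.24 (SD, n = 4 channels) in untreated wild type, 9.89 ± 0.16 (n = 2) in treated wild type, 11.47 ± 0.09 (n = 4) in untreated mutant and 9.22 ± 0.25 (n = 2) in treated mutant cells. The difference between the genotypes' responses was -1.11 ± 0.31 on the log2 scale (unadjusted p = 0.011), and it was not called over all probes (adjusted p = 0.71). It passed with array weights (adjusted p = 0.046, with 1.68% of all probes called) and missed on the 4 arrays of one extraction day (adjusted p = 0.055).

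Actc1, which encodes cardiac alpha-actin, had ratios below 0 as well. The log2 ratio was -0.78, from a marked spot, and -0.51 in wild type cells, and -1.06 and -1.37 in mutant cells, the second from a marked spot. Each fitted ratio thus rests on 1 array, -0.51 ± 0.28 (SE, adjusted p = 0.41) in wild type and -1.06 ± 0.28 (adjusted p = 0.32) in mutant cells. On the 4 arrays of one extraction day the mutant ratio was called (adjusted p = 0.013) and the wild type ratio was not (adjusted p = 0.11). The direction in mutant cells rests on the loess curve, for with median centring the mutant ratio was 0.26 (adjusted p = 0.68). The genotype arrays gave -0.80, from a marked spot, and 0.06.

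The 4 treated channels lay below all 8 untreated channels for both actins and for none of the other 8 genes. For Acta1 the treated levels were 9.04 to 10.00 and the untreated ones 10.92 to 11.61. For Actc1 they were 10.42 to 11.65 against 11.76 to 12.77, so that the nearest channels lay close together. Of all probes with a value in every channel, 0.414% lay lower in treated cells with no overlap and 0.776% higher. All treated channels are Cy5, while the untreated channels hold both dyes. In bulk RNA, fewer cells of a type and less RNA per cell cannot be told apart.

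**Figure D3:**
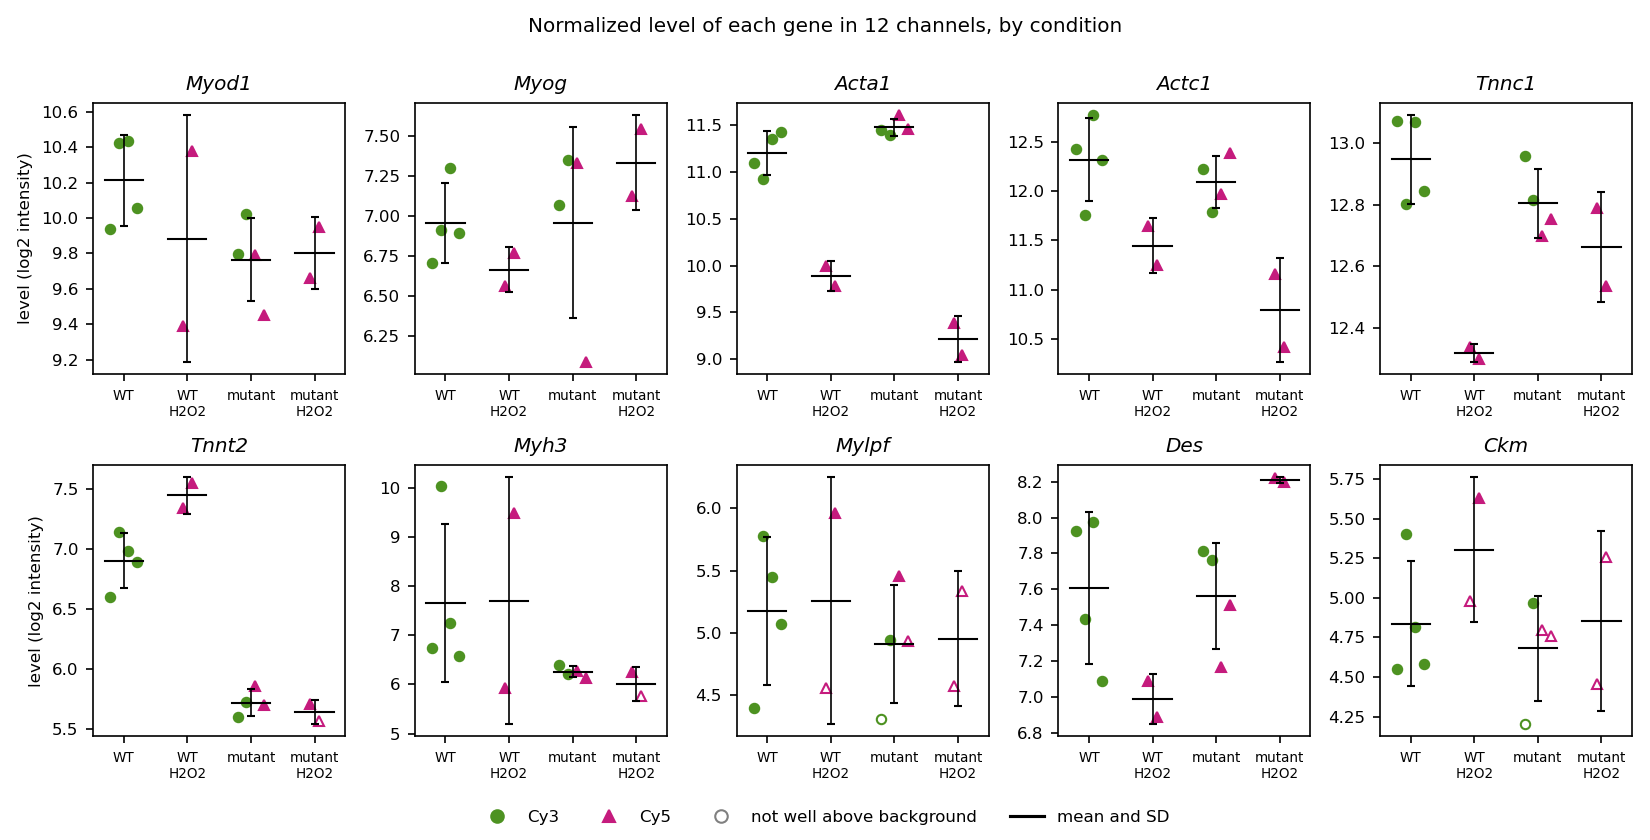
Normalized log2 intensity of the brighter probe of each gene in the 12 channels, by condition (WT, wild type), with the genotype arrays assigned by the study's table, black bars for the mean and error bars for 1 SD over channels. Circles are Cy3 and triangles Cy5, and open symbols were not well above background. Treated levels of Acta1 and Actc1 lie below every untreated one, and Tnnt2 is lower in all mutant channels.

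Tnnc1 encodes the troponin C of slow skeletal and cardiac muscle. Its log2 ratio was -0.73 and -0.50 in treated wild type cells and -0.17 and -0.28 in treated mutant cells. All 4 were below 0, and both mutant arrays lay above both wild type arrays, as for 23.6% of all probes. The fit gave -0.62 ± 0.17 (SE) with an adjusted p of 0.12 in wild type cells, called on the 4 arrays of one extraction day (adjusted p = 0.0075), and -0.22 ± 0.17 (adjusted p = 0.65) in mutant cells, where median centring turned the sign (0.68, adjusted p = 0.16). With that centring the wild type ratio was -0.20. The difference of the responses, 0.40 ± 0.24, was not called (adjusted p = 0.90). The genotype arrays gave -0.37, from a marked spot, and -0.09, with no call (adjusted p = 0.82).

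Tnnt2, which encodes cardiac troponin T, was the only gene of the set called between untreated mutant and wild type cells, a comparison in which 19.9% of all probes were called, 9.76% lower in the mutant. The log2 ratio of mutant over wild type was -1.12 and -1.19 on the genotype arrays, a mean of -1.15 ± 0.17 (SE), or 2.23-fold lower in the mutant (adjusted p = 0.0059). Under the dyes of the labels the same arrays give 1.15. The treatment arrays have no such doubt. In them the normalized level was 6.60 and 7.14 in untreated wild type cells and 7.34 and 7.55 in treated ones, against 5.59 and 5.72 in untreated mutant cells and 5.71 and 5.57 in treated ones. All 4 mutant channels lay below all 4 wild type channels, as for 7.33% of all probes. With the genotype arrays added in the direction of the study's table, the 6 mutant channels lay below the 6 wild type channels for Tnnt2 alone of the 10 genes, against 3.17% of all probes, and above them for none, against 4.78%. With the dyes of the labels the 6 and 6 channels overlapped for all 10 genes, and 0.142% of probes lay lower and 0.0982% higher. Read in Cy3 alone, the untreated mutant was lower by -0.95 ± 0.27 (SE, adjusted p = 0.28).

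The response of Tnnt2 to H2O2 was 0.74 and 0.41 in wild type cells, the opposite direction to the other thin filament genes, and 0.11 and -0.15 in mutant cells. It was not called in the fit over 6 arrays (0.57 ± 0.17, adjusted p = 0.12), was called on the 4 arrays of one extraction day (adjusted p = 0.015), and the mutant response minus the wild type response was -0.59 ± 0.24, not called (adjusted p = 0.84). The second probe of Tnnt2 was well above background in only 2 of 12 channels and gave a genotype ratio of 0.29 (adjusted p = 0.44), so the gene rests on 1 probe. The genotype call was lost in a fit of the genotype arrays alone (adjusted p = 0.080, with 3.74% of all probes called) and with array weights (adjusted p = 0.060, with 5.61%).

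Myh3, the embryonic myosin heavy chain, was measured by 2 probes that gave the same direction between genotypes. The brighter probe gave -0.98 and -0.46, a mean of -0.72 ± 0.20 (SE, adjusted p = 0.054). The other probe gave -1.37 and -1.72, a mean of -1.55 ± 0.18 (adjusted p = 0.0041), with Cy5 well above background on 1 of the 2 arrays. Counting a gene by any of its probes, Tnnt2 and Myh3 were thus called between genotypes. The share of all genes called by any probe was not counted, and 19.9% of all single probes were called. In Cy3 of the first 4 arrays the brighter probe was lower in the mutant by -1.82 ± 0.87 (SE), but that comparison holds wild type replicate 2, where this probe had its excess, and it was not called (adjusted p = 0.45).

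After H2O2 the brighter probe of Myh3 gave -0.82 and -0.56 in wild type cells, the second from a marked spot, and -0.14 and -0.45 in mutant cells. The other probe gave -0.92 and -0.72, the second from a marked spot, against 0.06 and 0.02. On the array of wild type replicate 2 the net signal of the brighter probe was 5271 in Cy3 and 671 in Cy5, against 358 and 24.9 on replicate 1. The fitted wild type ratio, -0.82 ± 0.29 (SE, adjusted p = 0.19), therefore comes from replicate 1 alone. Mylpf, the fast regulatory light chain, gave 0.16 and 0.18 in wild type, 0.26 and 0.40 in mutant cells and 0.01 and -0.14 between genotypes. Its Cy5 flag was positive on 2 of 6 arrays, and no comparison passed an unadjusted p of 0.05.

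Des, which encodes desmin, the intermediate filament protein of muscle, had ratios of opposite sign in the genotypes. The log2 ratio of treated over untreated cells was -0.84 and -0.54 in wild type and 0.41 and 0.44 in mutant cells. Both mutant arrays lay above both wild type arrays, as for 23.6% of all probes, and none of the 4 spots was marked. The fit gave -0.69 ± 0.28 (SE, adjusted p = 0.23) and 0.42 ± 0.28 (adjusted p = 0.60), and median centring gave -0.31 and 1.09. The difference of the responses was 1.11 ± 0.40 (unadjusted p = 0.026). It was not called over 6 arrays (adjusted p = 0.81), in a test that called 0% of probes at an adjusted p under 0.05 and 5.95% at an unadjusted p under 0.05. On the 4 arrays of one extraction day it was called (adjusted p = 0.020), where 1.94% of probes were called. Treated wild type cells had the lowest mean level of Des, 6.99 ± 0.14 (SD, n = 2 channels), and treated mutant cells the highest, 8.21 ± 0.02 (n = 2). Untreated cells lay between them at 7.61 ± 0.42 and 7.56 ± 0.30 (n = 4 each), which do not differ beyond their spread. The genotype arrays disagreed, at -0.81 and 0.43.

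Ckm, muscle creatine kinase, was well above background in only 6 of 12 channels. In Cy5 it passed the background flag on 1 array, that of wild type replicate 2. The ratios were 0.43 and 0.23 in wild type cells, 0.25 and 0.29 in mutant cells and -0.02 and 0.18 between genotypes, with no call.

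A wider list of 80 skeletal muscle genes, written with earlier results of these data known, was read in the same fit. None of the 75 with a value in treated wild type cells and none of the 79 in mutant cells was called by limma over 6 arrays, and 23 and 17 had an unadjusted p under 0.05 (30.7% and 21.5%, against 19.9% and 12% of all probes). The median log2 ratios were -0.06 and -0.08. Between untreated genotypes 21 of the 80 were called (26.2%, against 19.9% of all probes), 8 higher and 13 lower in the mutant, with a median of -0.07 against 0.01 for all probes. Cd9, a tetraspanin that takes part in myoblast fusion, was highest at 2.32 ± 0.28 (SE, adjusted p = 0.012), from replicate 3, since the spot of replicate 4 was marked (0.80). Chosen after their values were seen, Eno3, the muscle enolase, gave -1.87 ± 0.23 (adjusted p = 0.0033), and Chrnb1, a subunit of the acetylcholine receptor, gave -1.73 ± 0.18 (adjusted p = 0.0023). Of 11 other genes listed for muscle regulators and satellite cells 6 were called. Higher were 3 (Myf6, Eya1 and the cadherin gene Cdh15) and lower 3 (Six4, Mef2a and Mef2c), the last 5 named after their values were seen. Myf5 was well above background in 1 of 12 channels. Myf6 was 0.64 ± 0.17 higher in the mutant (adjusted p = 0.039), well above background in 8 channels, a call that held under 6 of 21 alternatives. Eya1 and Cdh15 were at 1.39 and 1.44, and Six4, Mef2a and Mef2c at -1.14, -0.87 and -0.79. Pax7, the satellite cell factor, was 0.05 ± 0.17 (adjusted p = 0.86) with 7 channels. In treated cells Myf5, Myf6 and Pax7 gave ratios between -0.29 and 0.02, with no call.

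Lists of other cell types that such a culture can hold were read beside these genes, again in the direction of the study's table. Of 10 fibroblast genes 6 were called higher in the untreated mutant and none lower, against 10.2% of all probes called higher. Dcn, decorin of the fibroblast matrix, was 2.76 ± 0.26 higher (SE, adjusted p = 0.0017). The summed normalized intensity of the fibroblast list was 44388 to 54617 in the 4 untreated wild type channels and 66645 to 99120 in the 4 untreated mutant channels, with 9 of the 10 genes well above background in all 12 channels and Lum in 9. Of 12 cardiac genes on the array 2 (16.7%) were called lower, against 9.76% of all probes called lower and 19.9% called in either direction. They were Tbx5 (-2.51 ± 0.21, adjusted p = 0.0011) and, named after its value was seen, Hand2 (-2.02 ± 0.23, adjusted p = 0.0043, from 2 arrays). The summed cardiac list was 3561 to 12457 in untreated wild type and 2493 to 2886 in untreated mutant channels. The highest value is that of wild type replicate 2, where 2 of the 12 cardiac genes were brighter than on replicate 1 by more than 2 (log2). Without this array the wild type range was 3561 to 4145. Tbx5 and Hand2 also mark limb and connective tissue mesenchyme. The summed fibroblast list was thus higher and the summed cardiac list lower in the mutant channels, beside a lower Tnnt2, and their part in that result was not tested.

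**Figure D4:**
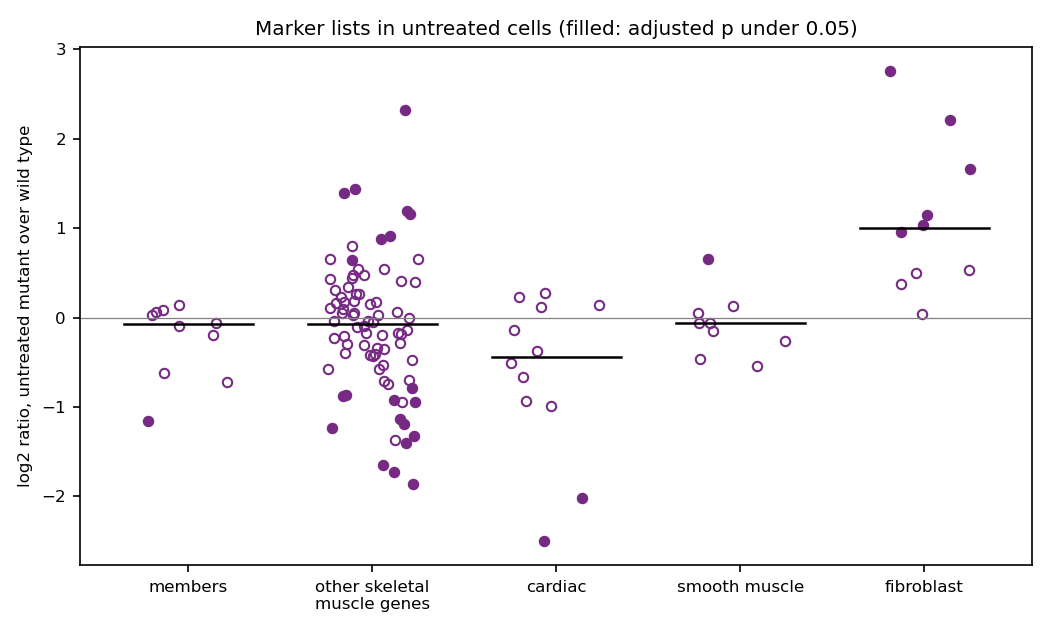
Log2 ratio of untreated mutant over untreated wild type cells, in the direction of the study's table, for the 10 members and 4 marker lists, with filled points at an adjusted p under 0.05 and black lines at the medians. Of the members only Tnnt2 is filled, at -1.15, and the 6 filled fibroblast genes all lie above 0.

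None of the smooth muscle and myofibroblast genes with a value, 9 in treated wild type and 10 in treated mutant cells, was called by limma over 6 arrays, and 1 and 2 had an unadjusted p under 0.05, against 19.9% and 12% of all probes. Acta2, smooth muscle alpha-actin, had ratios of -1.51 and -1.25 in treated wild type and -1.21 and -1.43 in treated mutant cells. It gave -2.27 and -0.64 between untreated genotypes as well, so that Cy5 was lower than Cy3 on all 6 arrays, 5 of them with marked spots. Actg2, the enteric actin, gave -1.30 and -1.08, then -1.10 and -1.20, and -2.24 and -0.27 between genotypes, with Cy5 again lower on all 6 arrays. With the dye term, the treated over untreated ratios of Acta2 were -0.21 and -0.16 and those of Actg2 -0.29 and -0.20, none of them called. As for Acta1, that term rests on the genotype arrays and cannot show whether a probe prefers a dye. Under 18 alternative settings each, Actg2 was called in 6 in treated wild type and 6 in treated mutant cells. Its ratio was below 0 in 18 and 17 of them. Acta2 was called in 1 of 5 in wild type and 6 of 18 in mutant cells, and was below 0 in 4 and 16. Tagln, transgelin, gave -0.28 ± 0.17 (SE, adjusted p = 0.41) and 0.21 ± 0.17 (adjusted p = 0.67). Between genotypes 1 of the 9 genes with a value was called (11.1%, against 19.9% of all probes). It was Lmod1, leiomodin (0.65 ± 0.16, adjusted p = 0.032), named after its value was seen, and the call held under 7 of 21 alternatives.

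Likeness of pattern was measured by Pearson's r over the 6 log2 ratios, marked spots kept, among 15730 probes well above background in both dyes on every array, for Acta1, Actc1 and Tnnc1, whose probes had the highest mean intensity. The 6 arrays share dyes and cultures, and the doubtful sign of the genotype arrays enters every value. In the direction of the study's table the closest genes were Pip5k2c, Phf10 and Mtss1 for Acta1 (r = 0.998, 0.998 and 0.997), E230022H04Rik, Copg2 and Hnrpdl for Actc1 (0.990 each), and Calr, BC028278 and Arl10c for Tnnc1 (0.993, 0.992 and 0.984). With the genotype ratios turned to the labels, r fell to -0.58, -0.49 and -0.68 for the first set, to -0.15, -0.39 and 0.97 for the second and to 0.99, 0.83 and 0.77 for the third. The closest genes were then Sfrs2, Pgam1 and Ppid for Acta1, Psmb5, Dnajc7 and Csnk1e for Actc1, and BC012278, Zfp37 and 4933426I21Rik for Tnnc1, at r of 0.992 to 0.998. Acta1 and Actc1 had r = 0.74 with each other in the first direction and 0.88 in the second, and Acta1 and Myod1 had -0.84 and 0.67.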

How the data were processed

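RNA of 6 pairs of cultures was hybridized to Agilent Whole Mouse Genome 60-mer arrays, each pair in Cy5 and Cy3. The labels give total RNA and the study's methods cytoplasmic RNA. The deposited array files hold the intensity of each spot and of its surroundings per dye, as measured by the scanner software, its flags (a score of 0 or 1) and its log10 ratio. The series matrix of the authors holds loess log2 ratios, which correlated with those computed here, marked spots kept, at r of at least 0.9995 on each array. The study's additional tables hold the authors' own fold changes and p-values, and no value of them was used except the direction of the genotype ratio. The genes and lists were chosen with earlier results of these data known.

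Here the local background median was subtracted, each array was normalized by loess in limma 3.58.1 (R 4.3.3) with control spots at weight 0 and marked spots in the curve, and spots marked as outliers in either dye were then left out. Log2 ratios were fitted with lmFit and eBayes over 6 arrays, with 1 coefficient per comparison, and two-sided p-values were adjusted (Benjamini-Hochberg) over every probe that is not a control and has a value. There were 3 residual degrees of freedom and 4.18 prior ones. Precision is limited by having 2 arrays per comparison. Levels are log2 intensities per channel after loess and scaling between arrays (Aquantile), marked spots kept. Separate channels were fitted with statmod 1.5.0. Other software was the data.table package (version 1.17.8) and, for sequences and plots, Python 3.11.15 with matplotlib 3.10.9 and pandas 2.3.3. The fit was tested on simulated data. Named genes are the 10 members with every probe, the 3 listed genes with the largest ratio among those called in a comparison, and Myf5, Myf6, Pax7, Acta2, Tagln and Actg2. Alternatives covered the background, the normalization, marked spots, array weights, dyes, thresholds, arrays left out and the replicate block. Gene coordinates and promoters are those of RefSeq for GRCm38.p6. Probe positions were not analysed here.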

Additional observations from a re-analysis of the deposited data

Results flagged for a closer look

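Des stood out because both arrays of the wild type went one way after H2O2 (-0.84 and -0.54 on the log2 scale) and both arrays of the mutant the other (0.41 and 0.44). How many of all probes had such opposite signs was not counted. The rule took brighter probes with no marked spot on the 4 treatment arrays. With marked spots kept, Myog had opposite signs too (-0.15 and -0.15 in wild type, 0.06 and 0.19 in mutant cells). So did the second probe of Myh3 (-0.92 and -0.72 against 0.06 and 0.02). For Des the difference of the responses was 1.11. The test of this difference for Des over 6 arrays did not pass (adjusted p = 0.81, limma). On the 4 arrays of one extraction day it did (adjusted p = 0.020, limma), where 1.94% of all probes were called.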

How the results depend on the processing

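Calls of the 10 genes changed with the arrays in the fit and their weights, the marked spots, the background and the dyes. Why they changed was not tested. In treated wild type cells, where none was called, 1 was with marked spots kept, with the authors' series table and with separate channels under the dyes of the labels, 2 with normexp and with the same separate channels with marked spots kept, 5 on the comparison's own 2 arrays, with array weights and on the 4 arrays of one extraction day, and 6 on its own 2 arrays with marked spots kept. In treated mutant cells, where none was called, 2 were under those last 4 settings. Between genotypes, where 1 was called, the count was 0 on its own 2 arrays with or without marked spots, with array weights, with separate channels under the dyes of the labels with or without marked spots, in Cy3 of the 4 treatment arrays and at the study's thresholds. It was 2 with normexp (14.7% of all probes called) and by any probe of a gene, a share not counted over all genes. It was 3 with marked spots kept (22.4%), with only probes well above background (30.8%) and with the series table (22.3%). For the difference of responses, where none was called, it was 2 with array weights and 1 on the 4 arrays of one extraction day. Leaving out 1 array at a time gave 0 to 5 in wild type cells, 0 to 2 in mutant cells, 1 to 4 between genotypes and 0 to 1 for the difference. The counts of 5, 2 and 1 came without either genotype array. Between genotypes the count was 2 without replicate 3, where 43.7% of all probes were called, and 4 without replicate 4, where 29.3% were. Over all probes, the 337 called in wild type cells became 982 with marked spots kept, 2042 with normexp, 18 with median centring, 578 with the Feature Extraction ratio, 104 with marked spots out of the curve, 10688 on the own arrays, 10643 with array weights, 9485 on the 4 arrays, 1029 with only probes well above background, 997 with the series table, 683 and 962 with separate channels under the dyes of the labels without and with marked spots, 7365 on the own arrays with marked spots kept, and 0 at the study's thresholds, without any single treatment array and with separate channels under the dyes of the study's table. The 0 in mutant cells became 2675 with median centring, 4968 on the own arrays, 3398 with array weights, 4567 on the 4 arrays, 5843 on the own arrays with marked spots kept and 18 with separate channels under the dyes of the study's table. The 8199 between genotypes became 4516 with median centring, 3352 with the Feature Extraction ratio, 1537 on the own arrays, 2304 with array weights, 16344 without replicate 3, 5225 without either wild type array, 3778 without either mutant array, 1957 on the own arrays with marked spots kept, 874 and 851 with separate channels under the dyes of the study's table, 0 under those of the labels, 825 at the study's thresholds and 90 in Cy3. The 0 for the difference became 677 with array weights, 782 on the 4 arrays, 116 with the block, 73 and 156 with separate channels under the dyes of the study's table and 10 and 18 under those of the labels. Tnnt2 between genotypes was 1.15 in the direction of the labels and 0.29 by its other probe.

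The replicate numbers of the wild type and mutant pairs shared only a number (r = -0.04 between the deviations), and with the replicate block the difference of the responses was called for 0 of the 10 genes and 0.288% of probes, against 0% without the block. Settings added after the data were seen are the marked spots without weight in the curve, separate channels or own arrays with marked spots kept, and Cy3 of the treatment arrays. Of 775 single-gene values under alternatives, no other called value changed sign. Counting both, the sign changed in 67 cases, among them Actc1 in treated mutant cells (0.26 with median centring). Probes near background, Mylpf, Ckm and the second probe of Tnnt2, limit what their ratios show.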
